A study of Mus musculus with 44 samples.

Results

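Serpins are protease inhibitors that offer a protease a reactive loop as bait and trap it after the loop is cut. Clade A serpins such as Serpina3g and Serpina3f belong to a branch that is mostly secreted, and clade B serpins mostly stay inside the cell, where they guard leukocytes against their own granule proteases. This report describes 7 serpin genes, Serpina3f, Serpina3g, Serpinb1a, Serpinb2, Serpinb6b, Serpinb9 and Serpinb9b, in mouse bone marrow-derived macrophages (BMDMs). They were taken by gene symbol from the rows of 4 count tables, and are 7 of the 64 genes listed there with a serpin symbol and 7 of 24940 genes listed in all. The genes were chosen by their measured expression in these libraries, and which groups or contrasts chose them is not recorded. All their levels and changes are therefore given as a description, with no p-value.

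The cells came from bone marrow of C57BL/6 mice aged 8 to 12 weeks, differentiated with M-CSF from L929-conditioned medium. Of 44 libraries in 22 groups of 2, the NCoR table held 24, from Ncor flox/flox mice (WT) and Ncor flox/flox LysMCre mice (NKO), which lack the corepressor NCoR in myeloid cells because Cre is driven from the Lyz2 locus. Each genotype was treated with vehicle (Veh), with KLA (Kdo2-lipid A, a TLR4 agonist), poly I:C (a TLR3 agonist), interferon beta (IFNb) or IL4 for 6 h, or with RANKL, the cytokine that drives osteoclast formation, for 12 h. The RGFP966 table held wild-type cells given vehicle, KLA, or KLA with the HDAC3 inhibitor RGFP966. The Pgc1b table held Pgc1b flox/flox and Pgc1b flox/flox LysMCre cells with vehicle or KLA, and the TBK1i table held wild-type cells with DMSO, DMSO and KLA, or a TBK1 inhibitor (TBK1i) and KLA. All controls of the knockout tables carried the floxed alleles. The labels do not say whether the 2 libraries of a group came from separate mice or cultures. Each error below comes from a fit of all groups of a table, so it is not the scatter of the compared libraries alone. It reflects spread between libraries of the same group, and whether that includes spread between mice is not known.

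Depth was 8.32 to 16.8 M gene counts per library, and 3 counts corresponded to 0.179 to 0.360 CPM. A level is given in CPM, the number of counts per 1000000 gene counts of its library. A change is a log2 fold change with its standard error (SE) from an edgeR fit of the whole table, and it is called when the Benjamini-Hochberg adjusted p over all genes of the table was below 0.05 and the fold was above 1.5. The fit scales libraries by TMM, which for KLA against vehicle put the median gene 0.69 to 0.78 log2 units above its value from library totals alone (0.64 with poly I:C). A gene with an equal CPM in both groups is therefore fitted as higher with KLA. Ncor1 averaged 132 to 201 CPM in the WT groups and 43.3 to 65.9 CPM in the NKO groups. Ppargc1b averaged 4.48 CPM in the Pgc1b flox/flox vehicle libraries and 4.34 CPM in those labelled LysMCre, and 5.56 and 8.33 CPM with KLA. Gene counts did not show a loss there, so in these counts the Pgc1b genotype stands as labelled. The study also gives an immunoblot of PGC1β, the Ppargc1b protein, in BMDMs of both genotypes, and protein was not measured here. The macrophage markers summed to 5814 to 12529 CPM in every library, with all 8 above 5 CPM. The RANKL columns are named for osteoclasts and the sample records for BMDMs, and the summed osteoclast markers there were 374 to 567 CPM, within the range of 221 to 2991 CPM over all libraries. The RANKL libraries also held 1663 to 2207 CPM of neutrophil markers, against at most 19.5 CPM in any other library. Column names carry dates, and the labels do not say what step they mark. These dates put the WT_KLA libraries 115 days before WT_Veh, the RANKL libraries 536 days before WT_Veh, and the NKO_KLA libraries 1401 days before WT_KLA. The NKO_KLA libraries held Y-linked counts and the other 22 libraries of that table held Xist, so that at KLA genotype, date and sex cannot be told apart. In WT cells RANKL against vehicle also differed in hours, date, and neutrophil and fibroblast markers, and KLA against vehicle in date and fibroblast markers. The fibroblast markers summed to 117 and 105 CPM in WT_Veh, 0.945 and 1.08 CPM in WT_KLA, and 280 and 249 CPM in WT_RANKL. In the TBK1i table KLA took them from 66.8 and 68.8 to 37.7 and 35.4 CPM. They were at most 3.56 CPM in the RGFP966 and Pgc1b tables. In those WT contrasts the ligand cannot be told apart from these differences. In bulk RNA fewer cells of a type and less RNA per cell cannot be told apart either.

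Of the 7 genes, 4 lie on chromosome 13 within 198 kb (mm10). Serpinb1a is at chr13:32842092-32851185 on the minus strand, and Serpinb6b (chr13:32965513-32979037), Serpinb9 (chr13:33004541-33017955) and Serpinb9b (chr13:33027414-33040558) follow on the plus strand, with 9.46 kb between the last 2. Serpinb2 is at chr1:107511510-107525600 (from 107511423 in the RGFP966 table) and Serpina3f at chr12:104214544-104221129, both on the plus strand. The deposited interval of Serpina3g, chr12:104214454-104241944, contains the whole of Serpina3f, while the GENCODE exons of Serpina3g lie at chr12:104236245-104241939, 15.1 kb past the end of Serpina3f. Reads of a shared exon may thus have been counted for either gene. Of all 50-base words in the longest coding GENCODE transcript, 10.7% for Serpina3f and 16.0% for Serpina3g also occurred in a transcript of another gene. The share was 3.42% for Serpinb1a, 3.13% for Serpinb6b, 0.499% for Serpinb9b, 0.380% for Serpinb9 and 0 for Serpinb2, so that most of the sequence of the clade B genes was unique at that length.

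The upstream sequences below are shown because the paralogues of each pair, which share ancestry, differed in level. They come from RefSeq (GRCm38.p6, plus strand), end at the base before the RefSeq start, and were found for 6 of the 7 genes. For Serpina3g that start is neither the deposited start, chr12:104214454, nor the GENCODE start, chr12:104236245. The Serpina3f stretch was cut at the start of the deposited Serpina3g interval, so it is also the sequence just before that interval. Capitals mark a motif match: TTCNNNGAA (GAS, the STAT site) in Serpina3f and Serpina3g, TGANTCA (AP-1) in Serpinb2, and the reverse strand of the ISRE, the interferon response element, in Serpinb9. In Serpinb9b capitals mark the bases aligned with that Serpinb9 match.
Serpina3f, chr12:104214294-104214453: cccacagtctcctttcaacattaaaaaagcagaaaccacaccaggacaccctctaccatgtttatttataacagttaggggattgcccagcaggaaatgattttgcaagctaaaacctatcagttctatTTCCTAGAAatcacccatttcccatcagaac
Serpina3g, chr12:104235897-104236146: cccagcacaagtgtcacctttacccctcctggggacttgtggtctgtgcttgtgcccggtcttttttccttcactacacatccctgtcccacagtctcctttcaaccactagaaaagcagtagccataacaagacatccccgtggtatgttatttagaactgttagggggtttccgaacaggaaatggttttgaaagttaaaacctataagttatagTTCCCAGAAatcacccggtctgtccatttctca
Serpinb2, chr1:107511173-107511422: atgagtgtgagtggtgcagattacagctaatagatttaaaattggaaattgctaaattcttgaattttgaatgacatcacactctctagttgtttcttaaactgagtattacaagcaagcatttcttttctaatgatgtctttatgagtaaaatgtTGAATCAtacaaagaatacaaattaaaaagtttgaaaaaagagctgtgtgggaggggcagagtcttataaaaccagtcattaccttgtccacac
Serpinb9, chr13:33004291-33004540: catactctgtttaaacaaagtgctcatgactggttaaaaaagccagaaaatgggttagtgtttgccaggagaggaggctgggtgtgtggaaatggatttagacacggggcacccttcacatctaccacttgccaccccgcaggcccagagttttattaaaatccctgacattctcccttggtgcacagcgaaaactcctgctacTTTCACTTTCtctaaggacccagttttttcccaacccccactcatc
Serpinb9b, chr13:33027164-33027413: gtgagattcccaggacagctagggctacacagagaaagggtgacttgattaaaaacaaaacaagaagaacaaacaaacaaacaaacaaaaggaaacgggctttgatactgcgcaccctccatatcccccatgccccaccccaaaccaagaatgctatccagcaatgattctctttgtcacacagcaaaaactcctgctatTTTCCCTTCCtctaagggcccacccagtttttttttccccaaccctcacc

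In a global alignment, 159 of 214 aligned bases were identical between the Serpinb9 and Serpinb9b windows (74.3%). Counted from 1 at the first capital, the Serpinb9b stretch differed from the Serpinb9 match by A5C and T9C. A5C falls on a free N of the ISRE and T9C on a fixed letter. No ISRE match was found in the Serpinb9b window on either strand. Serpina3f and Serpina3g shared 126 of 152 aligned bases (82.9%), and their aligned GAS matches differed by T5C. Searched on both strands, the ISRE was present in 2.98% of the 32841 promoter windows of the same length, TTCNNNGAA in 7.02% and TGANTCA in 6.75%. The kappaB motif, present in 3.33% of windows, had no match in the windows of these genes. A second Serpinb2 window, which ends before the start used in the NCoR, Pgc1b and TBK1i tables (chr1:107511260-107511509), held the same AP-1 match and a GAS match, TTCCAAGAA, at −77 from that start. No motif was found in the Serpinb6b window. These letter matches are a description of the sequence, and binding was not measured here.

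The 2 Serpina3 genes had the widest range of the 7, from 0 or a few counts in vehicle-treated cells to the highest levels of any member in KLA-treated NKO cells. Serpina3g encodes Spi2A, an inhibitor that also blocks cysteine cathepsins inside the cell. Its levels in WT cells were 0.166 and 0.487 CPM with vehicle, 153 and 146 CPM with KLA, and 175 and 178 CPM with poly I:C. They were 5.80 and 4.27 CPM with RANKL, 7.31 and 10.2 CPM with IL4, and 3.47 and 3.17 CPM with IFNb. All ligands thus gave levels that did not overlap those with vehicle, and the levels with KLA and poly I:C stood more than an order of magnitude above those with the others. The log2 fold change was 9.51 ± 0.17 with KLA, 9.67 ± 0.16 with poly I:C, 4.69 ± 0.33 with IL4, 3.81 ± 0.38 with RANKL and 3.40 ± 0.41 with IFNb, all called. Since vehicle rested on few reads, leaving out WT_Veh replicate 2 put these at 10.45, 10.61, 5.63, 4.75 and 4.34, and the KLA change of the Pgc1b flox/flox cells (10.11 ± 0.29) went to 9.26 or 14.54 without replicate 1 or replicate 2 of Pgc1b_flox_Veh.

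Serpina3f was also highest with KLA and poly I:C among the same WT groups, but its levels with RANKL were the lowest of the 5 ligands. It had 0.0828 and 0.0812 CPM with vehicle, 90.9 and 87.5 CPM with KLA, and 65.7 and 71.3 CPM with poly I:C. It had 3.37 and 3.12 CPM with IL4, 0.867 and 1.38 CPM with IFNb, and 0.249 and 0.267 CPM with RANKL. Because both vehicle libraries were at or under 3 counts, folds are lower bounds against a floor of 3 counts per library: at least 362-fold higher with KLA, at least 278-fold with poly I:C, at least 13.2-fold with IL4 and at least 4.57-fold with IFNb. With RANKL both groups were at or under the floor and no fold is given. In the other 3 sets of KLA-treated control cells Serpina3f was at least 764-fold, 532-fold and 286-fold higher than with vehicle (RGFP966, Pgc1b and TBK1i tables), so the KLA rise was present in each table.

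**Figure D1:**
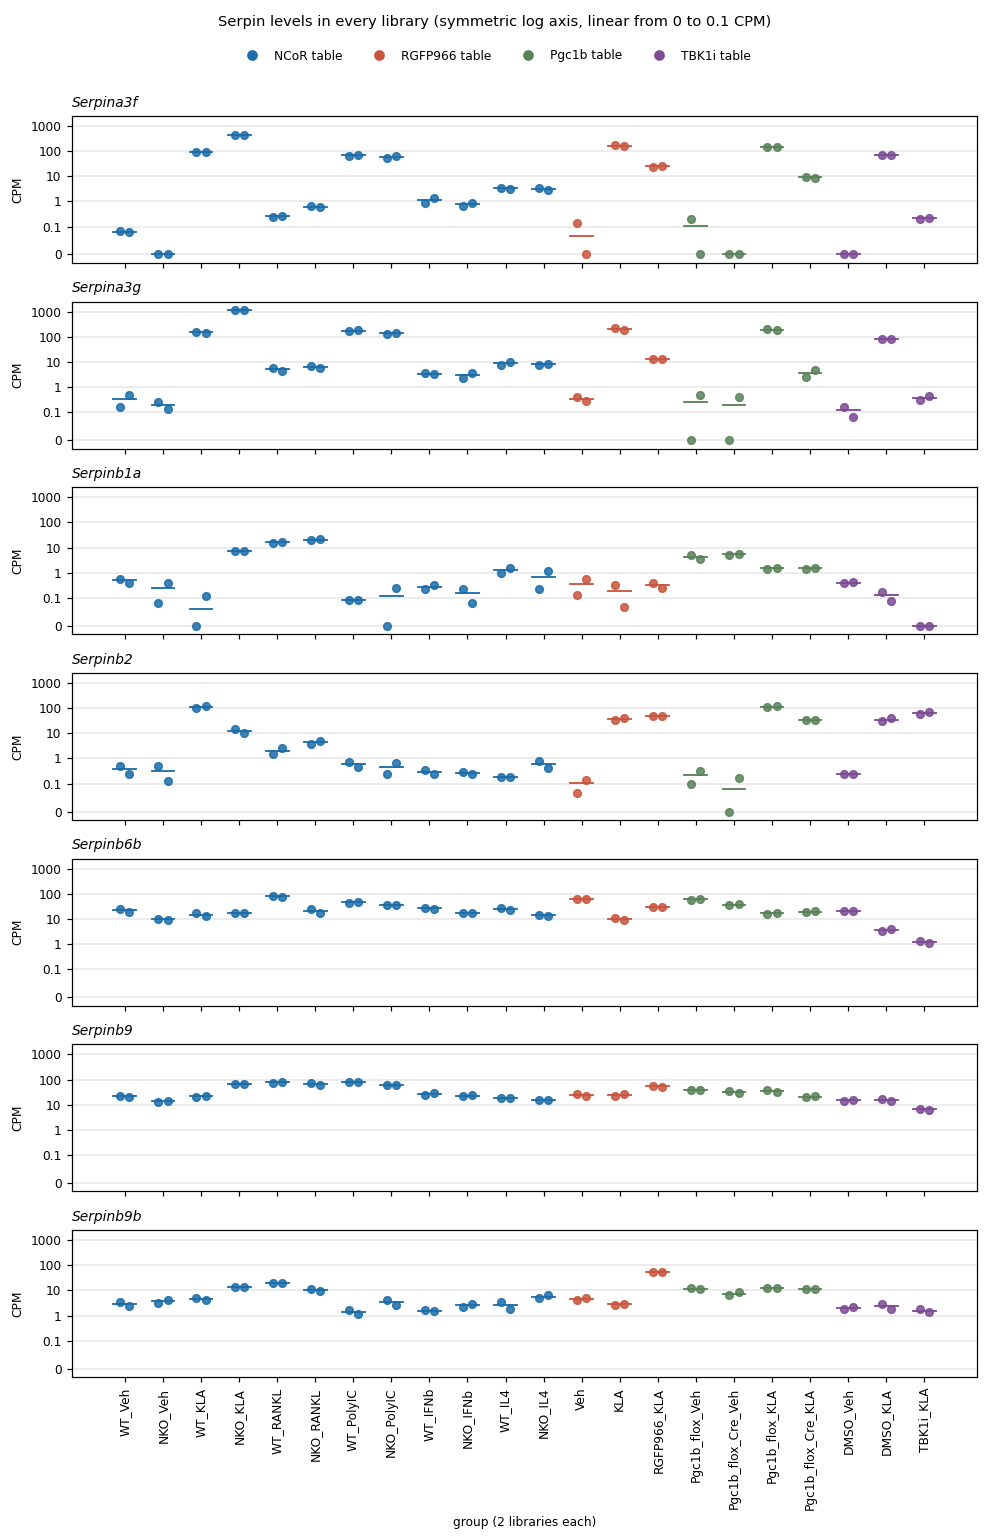
Level in CPM of each of the 7 serpins (symmetric log axis, linear from 0 to 0.1) in the 22 groups, with a point per library, a bar at the group mean and colours for the count table. Serpina3f, Serpina3g and Serpinb2 sit near 0 with vehicle and above 30 CPM in all control groups given KLA, while Serpinb6b and Serpinb9 are above 1 CPM in every library.

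In KLA-treated cells the Serpina3 pair was higher in the NKO libraries and lower with each inhibitor and in the Pgc1b flox/flox LysMCre libraries. Serpina3g had 153 and 146 CPM in WT_KLA and 1152 and 1145 CPM in NKO_KLA, a log2 fold change of 3.00 ± 0.07. Serpina3f had 90.9 and 87.5 CPM against 446 and 452 CPM, a log2 fold change of 2.39 ± 0.07. These are the highest levels of both genes in any group, and no libraries overlapped. With RGFP966, Serpina3g fell from 229 and 180 CPM to 12.7 and 12.8 CPM (−4.04 ± 0.10) and Serpina3f from 166 and 152 CPM to 22.6 and 26.1 CPM (−2.74 ± 0.08). In the Pgc1b table Serpina3g fell from 203 and 184 CPM to 2.54 and 4.56 CPM (−5.98 ± 0.20), and Serpina3f from 146 and 146 CPM to 9.60 and 8.85 CPM (−4.18 ± 0.13). With the TBK1 inhibitor both genes were below 0.5 CPM, where the DMSO vehicle libraries had 0.159 and 0.0825 CPM of Serpina3g and 0 of Serpina3f. Serpina3g fell from 82.2 and 80.4 CPM to 0.298 and 0.445 CPM (−8.11 ± 0.20), and Serpina3f from 68.0 and 70.9 CPM to 0.199 and 0.223 CPM, at least 220-fold lower.

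Outside KLA, the NKO contrasts of the Serpina3 pair passed no call. With poly I:C Serpina3g had 175 and 178 CPM in WT and 125 and 146 CPM in NKO (−0.42 ± 0.07), and Serpina3f 65.7 and 71.3 CPM against 51.3 and 63.9 CPM (−0.28 ± 0.08). The groups did not overlap for either gene, but the folds were below 1.5. With IFNb and IL4 the WT and NKO libraries overlapped for both genes, with log2 fold changes between −0.44 ± 0.42 and 0.03 ± 0.24. Whether the NKO difference at KLA exceeded that at another ligand was not tested.

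The 2 genes did not keep a fixed ratio. Where both had over 10 counts in both libraries, Serpina3g had 1.68 and 1.67 times the CPM of Serpina3f in WT_KLA, 2.58 and 2.53 times in NKO_KLA, and 2.67 and 2.50 times in WT_PolyIC. The ratio was 0.561 and 0.489 in RGFP966_KLA and 0.265 and 0.515 in the Pgc1b flox/flox LysMCre cells given KLA. Serpina3g was thus the higher of the 2 in 10 of the 12 groups with such counts and Serpina3f in these last 2. Their transcripts differ little in length (2095 and 2246 bases in the deposited annotation), and per kilobase the means in NKO_KLA were 548 and 200 CPM. Because reads can be shared between them, the ratios hold for the deposited counts only.

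**Figure D2:**
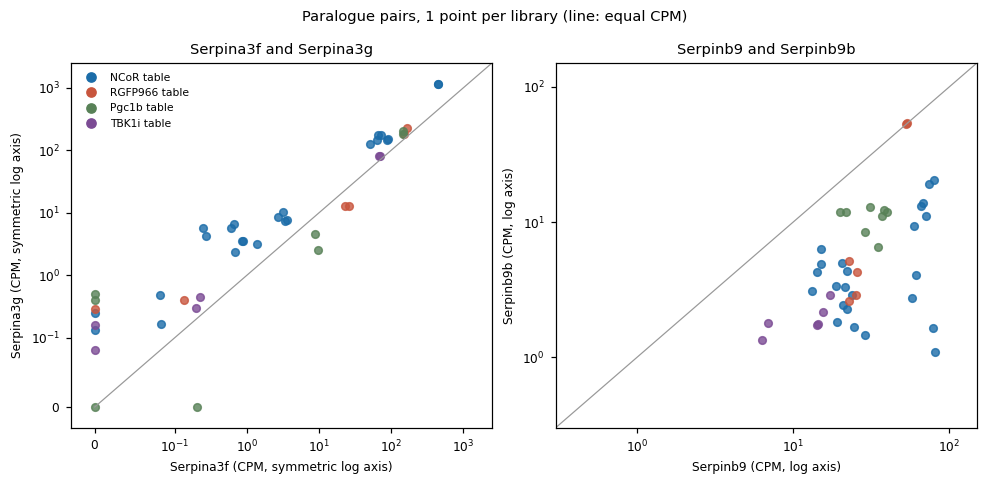
Level in CPM of Serpina3g against Serpina3f (left, symmetric log axes) and of Serpinb9b against Serpinb9 (right, log axes), 1 point per library, with a grey line at equal levels and colours for the count table. Only RGFP966_KLA and the KLA-treated Pgc1b flox/flox LysMCre libraries among those with over 10 counts lie below the line at left, and the RGFP966_KLA libraries lie on the line at right, with 53.5 and 52.6 CPM of Serpinb9 and 54.0 and 53.3 CPM of Serpinb9b.

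Serpinb2 is plasminogen activator inhibitor type 2, which inhibits urokinase, and it exceeded 10 CPM only in libraries given KLA. In WT cells it had 0.497 and 0.244 CPM with vehicle and 106 and 122 CPM with KLA, a log2 fold change of 8.95 ± 0.23. It had 1.49 and 2.58 CPM with RANKL (2.32 ± 0.49, called), and at most 0.730 CPM in any WT library given poly I:C, IFNb or IL4, none of them called. Poly I:C, which raised the Serpina3 pair as KLA did, gave Serpinb2 levels of 0.730 and 0.458 CPM that overlapped those with vehicle. In the other tables KLA took it from 0.0662 and 0.145 CPM to 34.5 and 39.6 CPM (at least 178-fold), from 0.100 and 0.330 CPM to 114 and 117 CPM (9.61 ± 0.23), and from 0.238 and 0.248 CPM to 30.3 and 39.7 CPM (at least 144-fold). Without Pgc1b_flox_Veh replicate 2 the second of these was 10.68.

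Among KLA-treated cells Serpinb2 was lower in NKO, where the Serpina3 pair was higher, and lower in the Pgc1b flox/flox LysMCre cells, as that pair was. In NKO_KLA it had 14.2 and 10.7 CPM against 106 and 122 CPM (−3.13 ± 0.13), whereas the NKO RANKL libraries had 3.81 and 5.09 CPM against 1.49 and 2.58 CPM (1.23 ± 0.30, called). In the Pgc1b flox/flox LysMCre cells it fell from 114 and 117 CPM to 34.6 and 34.3 CPM (−1.94 ± 0.11). With RGFP966 it had 48.7 and 49.9 CPM against 34.5 and 39.6 CPM (0.37 ± 0.09), and with the TBK1 inhibitor 60.2 and 70.6 CPM against 30.3 and 39.7 CPM (0.53 ± 0.09). These last 2 pairs of groups did not overlap and passed no call, their folds being below 1.5. The TBK1i contrast was called without DMSO_KLA replicate 2 (0.75) or TBK1i_KLA replicate 1 (0.65), and at 0.90 with library totals alone.

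Serpinb9 inhibits granzyme B, the cytotoxic protease of T and NK cells, and it was present at 6.34 CPM or more in every library. In WT cells it had 21.6 and 20.7 CPM with vehicle, 79.1 and 80.4 CPM with poly I:C and 73.9 and 79.2 CPM with RANKL. These were log2 fold changes of 2.56 ± 0.08 and 1.77 ± 0.09, both called, and neither group overlapped vehicle. With IFNb it had 24.4 and 28.7 CPM (0.43 ± 0.10) and with IL4 18.9 and 19.1 CPM (−0.15 ± 0.11), neither called. With KLA it had 20.6 and 22.2 CPM, which overlapped the vehicle libraries. The fitted change of 0.74 ± 0.11 passed the call with TMM and with DESeq2's size factors and was 0.02, not called, from library totals alone. The call was likewise lost from library totals alone in the RGFP966 table (25.7 and 22.8 CPM with vehicle, 22.8 and 25.4 CPM with KLA, 0.76 ± 0.10 and −0.011) and in the TBK1i table (14.1 and 15.5 CPM, 17.2 and 14.5 CPM, 0.88 ± 0.14 and 0.10), the second value in each case being that from library totals. In the Pgc1b table it had 40.1 and 37.02 CPM with vehicle and 38.4 and 30.9 CPM with KLA (0.55 ± 0.13, called only without Pgc1b_flox_Veh replicate 1 at 0.59 or Pgc1b_flox_KLA replicate 2 at 0.68, and −0.15 from library totals alone). In CPM, then, Serpinb9 did not separate KLA from vehicle in any table.

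Among KLA-treated cells Serpinb9 was higher in NKO and with RGFP966 and lower in the other 2 contrasts. It had 67.8 and 66.1 CPM in NKO_KLA against 20.6 and 22.2 CPM in WT_KLA (1.70 ± 0.09), and 53.5 and 52.6 CPM with RGFP966 against 22.8 and 25.4 CPM (1.10 ± 0.09). It had 19.9 and 21.7 CPM in the Pgc1b flox/flox LysMCre cells against 38.4 and 30.9 CPM (−0.94 ± 0.14), and 6.85 and 6.34 CPM with the TBK1 inhibitor against 17.2 and 14.5 CPM (−1.63 ± 0.17). All 4 were called and none overlapped. In NKO cells with vehicle it had 13.2 and 14.3 CPM against 21.6 and 20.7 CPM (−0.57 ± 0.11), short of the fold threshold, but past it without WT_Veh replicate 2 (−0.59), without NKO_Veh replicate 2 (−0.63) and with library totals alone (−0.62). NKO cells given poly I:C had 61.1 and 57.9 CPM against 79.1 and 80.4 CPM (−0.46 ± 0.07) and those given RANKL 70.6 and 59.2 CPM against 73.9 and 79.2 CPM (−0.14 ± 0.08), neither called.

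Serpinb9b, the neighbouring paralogue, is known as an inhibitor of granzyme M. It had 3.31 and 2.44 CPM in WT_Veh and 19.1 and 20.4 CPM with RANKL (2.69 ± 0.20, called). With poly I:C it had 1.64 and 1.10 CPM (−0.42 ± 0.34), not called, but called lower at −1.06 from library totals alone, while Serpinb9 rose. The ratio of Serpinb9 to Serpinb9b was 6.52 and 8.50 in WT_Veh, 3.88 and 3.89 in WT_RANKL and 48.1 and 73.1 in WT_PolyIC. With KLA Serpinb9b had 4.96 and 4.33 CPM (1.42 ± 0.27, called). In the other tables KLA gave 2.61 and 2.89 CPM against 4.24 and 5.16 CPM (0.00 ± 0.22), 12.3 and 13.0 CPM against 12.0 and 11.05 CPM (0.83 ± 0.20, called), and 2.89 and 1.77 CPM against 1.74 and 2.15 CPM (1.04 ± 0.36, called, groups overlapping). From library totals alone these 3 were −0.76 and called lower, 0.14 and 0.27, so that the direction in the RGFP966 table and the calls in the Pgc1b and TBK1i tables depended on the scaling. The last was also not called without DMSO_Veh replicate 1 (0.90) or DMSO_KLA replicate 1 (0.66), nor by DESeq2 (1.01). With IFNb it had 1.66 and 1.46 CPM (−0.76 ± 0.31), called lower only without WT_Veh replicate 2 (−0.96) or from library totals alone (−0.87), and with IL4 3.37 and 1.83 CPM (−0.14 ± 0.29), overlapping vehicle.

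The highest level of Serpinb9b was with RGFP966, at 54.0 and 53.3 CPM against 2.61 and 2.89 CPM with KLA alone (4.24 ± 0.14), the largest rise of any member in the inhibitor and Pgc1b contrasts. The second RGFP966_KLA library had a date 14 days after that of the first, and the 2 libraries differed by less than 1 CPM. In NKO_KLA it had 13.8 and 13.1 CPM against 4.96 and 4.33 CPM (1.59 ± 0.20, called), and in NKO_RANKL 11.1 and 9.35 CPM against 19.1 and 20.4 CPM (−0.84 ± 0.17, called). It was also called higher in NKO with poly I:C (4.03 and 2.73 CPM against 1.64 and 1.10 CPM, 1.25 ± 0.33) and IL4 (4.86 and 6.36 CPM against 3.37 and 1.83 CPM, 1.18 ± 0.25). The poly I:C call was lost without WT_PolyIC replicate 2 (1.00) or NKO_PolyIC replicate 1 (0.97), and the IL4 call without WT_IL4 replicate 2 (0.80). With the TBK1 inhibitor it had 1.79 and 1.34 CPM against 2.89 and 1.77 CPM (−0.93 ± 0.40). Those groups overlapped, and the call was lost without DMSO_KLA replicate 1 (−0.54) and without either TBK1i_KLA library (−1.16 and −0.75), by DESeq2 (−0.91) and from library totals alone (−0.57).

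Serpinb6b is known as an inhibitor of granzyme A, and with vehicle it was the highest member in each of the 4 tables per kilobase. In WT cells it had 24.6 and 19.3 CPM with vehicle, 84.2 and 77.9 CPM with RANKL (1.80 ± 0.10) and 44.6 and 49.1 CPM with poly I:C (1.74 ± 0.11), both called. With IFNb and IL4 its log2 fold changes were 0.38 ± 0.12 and 0.18 ± 0.12. With KLA the tables differed. WT_KLA had 17.02 and 12.7 CPM, with a fitted change of 0.17 ± 0.14, not called (−0.56 from library totals alone, not called). KLA took Serpinb6b from 60.8 and 64.0 CPM to 11.1 and 8.73 CPM in the RGFP966 table (−1.89 ± 0.11), from 58.8 and 60.4 CPM to 15.6 and 17.9 CPM in the Pgc1b table (−1.14 ± 0.13) and from 20.6 and 21.05 CPM to 3.41 and 4.07 CPM in the TBK1i table (−1.70 ± 0.19). These 3 were called lower, and levels with KLA were below those with vehicle in CPM in all 4 tables. A difference between tables was not tested, since each was fitted apart.

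Serpinb6b was called lower in NKO under 3 conditions. It had 10.2 and 8.87 CPM in NKO_Veh against 24.6 and 19.3 CPM (−1.16 ± 0.14), 24.4 and 17.05 CPM in NKO_RANKL against 84.2 and 77.9 CPM (−1.86 ± 0.11), and 14.8 and 13.2 CPM in NKO_IL4 against 26.6 and 22.7 CPM (−0.74 ± 0.13), all called. It was lower in every NKO library with poly I:C (35.8 and 35.9 against 44.6 and 49.1 CPM, −0.42 ± 0.10) and IFNb (16.98 and 17.3 against 26.8 and 26.1 CPM, −0.56 ± 0.12) without passing the fold threshold. From library totals alone the IFNb contrast was called at −0.63. At KLA the groups overlapped, with 16.9 and 18.0 CPM in NKO and 17.02 and 12.7 CPM in WT (0.28 ± 0.14). In the Pgc1b flox/flox LysMCre cells with vehicle it had 34.4 and 38.2 CPM against 58.8 and 60.4 CPM (−0.69 ± 0.12). That call was lost without Pgc1b_flox_Cre_Veh replicate 1 (−0.61) and with DESeq2 (−0.69). With KLA there the change was 0.02 ± 0.14. It rose with RGFP966 (28.6 and 29.1 against 11.1 and 8.73 CPM, 1.51 ± 0.12) and fell with the TBK1 inhibitor (1.39 and 1.11 against 3.41 and 4.07 CPM, −1.92 ± 0.33).

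Serpinb1a inhibits the neutrophil serine proteases elastase, cathepsin G and proteinase 3, and is abundant in neutrophils. It had the lowest group mean of the 7 in 12 of 22 groups, with both libraries at or under 3 counts in 6 groups. The highest were with RANKL, at 15.2 and 16.6 CPM in WT and 19.6 and 21.2 CPM in NKO, against 0.579 and 0.406 CPM in WT_Veh (4.89 ± 0.33 in WT, called). Beside it, the 8 neutrophil markers summed to 1818 and 1663 CPM in WT_RANKL and to 9.60 and 4.22 CPM in WT_Veh, and Elane had 37.6 and 38.1 CPM against 0 in both. The part of these cells in the Serpinb1a level was not tested. The next highest was NKO_KLA, with 7.51 and 7.36 CPM against 0 and 0.120 CPM in WT_KLA, at least 20.8-fold higher. There the neutrophil markers summed to 2.50 and 2.45 CPM against 6.15 and 5.65 CPM, and Elane was at 0 in all 4 libraries. The 10 libraries with over 100 Y-linked counts, those of NKO_KLA and of the Pgc1b table, had 1.39 to 7.51 CPM of Serpinb1a, and the 30 others outside RANKL had 0 to 1.56 CPM, and the part of sex in this was not tested. The Pgc1b flox/flox cells had 4.92 and 3.54 CPM with vehicle and 1.43 and 1.53 CPM with KLA (−0.81 ± 0.40, not called, but called at −1.50 from library totals alone). With IL4 it had 0.937 and 1.56 CPM (1.33 ± 0.54), called only without WT_IL4 replicate 1 (1.64) or without a filter on low counts (1.33). With KLA and poly I:C in WT cells it was at or under 3 counts in each library, and its fitted changes were called lower only from library totals alone (−2.84 and −2.30). NKO cells given IL4 had 0.231 and 1.13 CPM (−0.82 ± 0.50 against WT), called only without NKO_IL4 replicate 2 (−2.30). Serpinb1a did not pass the filter in the RGFP966 and TBK1i tables, where its 12 libraries held at most 0.581 CPM.

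**Figure D3:**
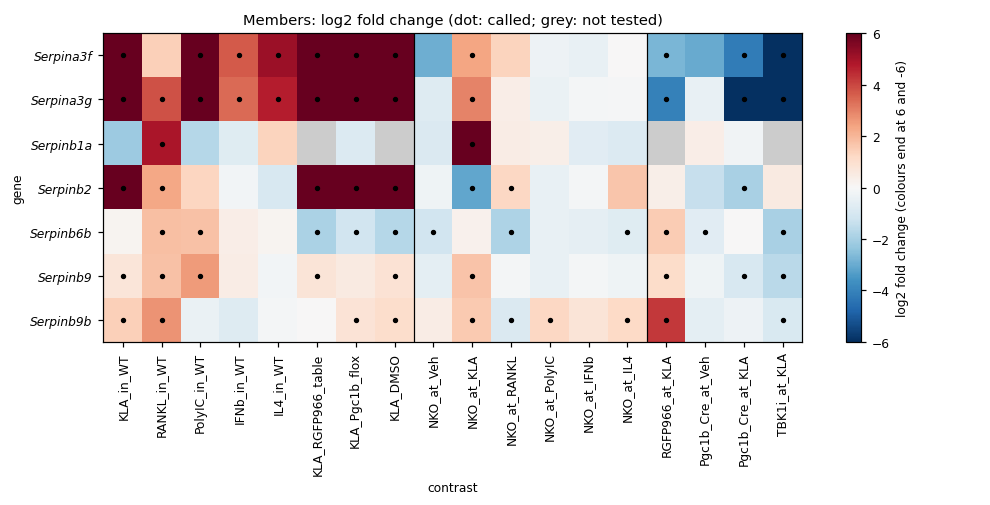
Log2 fold change of the 7 serpins (rows) in the 18 contrasts (columns, with lines between ligand responses, NKO against WT, and inhibitor or Pgc1b contrasts), coloured from −6 to 6, with a dot where called and grey where not tested. Ligand responses hold 32 calls higher and 3 lower, the NKO contrasts 8 higher and 5 lower, and the last 4 contrasts 3 higher and 12 lower. Of all genes tested, 6.47% to 60.0% were called in a ligand response, 3.80% to 40.0% in an NKO contrast and 0.303% to 33.3% in the last 4. From library totals alone the responses hold 27 higher and 9 lower.

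Counted over the 7 genes, RANKL gave the most calls in WT cells, with 6 higher and 0 lower, where 24.1% of the 13407 genes tested in that table were called higher. Ligand, hours, date, and neutrophil and fibroblast markers cannot be told apart in the RANKL contrast. That contrast called 19.8% of all genes lower and 43.8% in either direction. KLA gave 5 higher and 0 lower (25.4% and 32.3% of all genes, 57.8% in all), poly I:C 4 and 0 (22.2% and 25.0%, 47.2% in all), IFNb 2 and 0 (4.09% and 2.37%, 6.47% in all) and IL4 2 and 0 (6.63% and 6.46%, 13.1% in all). KLA against vehicle in the other tables gave 4 higher and 1 lower of 6 tested in the RGFP966 table (27.9% and 32.2% of all genes, 60.0% in all), 4 higher and 1 lower of 7 in the Pgc1b table (22.8% and 25.7%, 48.5% in all), and 5 higher and 1 lower of 6 in the TBK1i table (29.6% and 29.3%, 58.9% in all). The median log2 fold change of the members was 1.42 with KLA, 2.32 with RANKL, 1.74 with poly I:C, 0.38 with IFNb and 0.18 with IL4, beside −0.14, 0.02, −0.07, 0.00 and −0.01 over all genes tested. These contrasts of WT cells share the WT_Veh libraries. Over the 8 responses, 32 calls were higher and 3 lower (91.4% higher), and from library totals alone 27 were higher and 9 lower (75.0%).

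NKO against WT gave 5 members higher and 1 lower with KLA (21% and 19% of all genes, 40.0% in all), 1 higher and 2 lower with RANKL (6.21% and 6.99%, 13.2% in all), 0 and 1 with vehicle (2.40% and 3.80%, 6.21% in all), 1 and 0 with poly I:C (3.01% and 2.92%, 5.93% in all), 1 and 1 with IL4 (1.90% and 2.33%, 4.24% in all), and 0 and 0 with IFNb (1.86% and 1.94%, 3.80% in all). With IFNb, edgeR's quasi-likelihood test put 2 of the 7 below an unadjusted p of 0.05 and 1, Serpinb6b, below an adjusted p of 0.05 at a fold under 1.5, and DESeq2 called 0. Of the 13 calls over these 6 contrasts, 6 came from NKO_KLA. RGFP966 gave 3 higher and 2 lower of 6 tested (15.8% and 9.54%, 25.4% in all), the TBK1 inhibitor 0 and 5 of 6 (15.0% and 18.3%, 33.3% in all), and the Pgc1b flox/flox LysMCre cells 0 and 4 of 7 with KLA (13.2% and 12.9%, 26.1% in all) and 0 and 1 with vehicle (0.164% and 0.139%, 0.303% in all). From library totals alone the share of all called genes that were higher fell from 44.01% to 20.1% for KLA in WT and from 47.0% to 20.3% for poly I:C, and went from 45.0% to 73.6% for the TBK1 inhibitor and from 50.6% to 68.2% for Pgc1b flox/flox LysMCre with KLA.

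In the correlation of log2(CPM + 1) over the 22 group means, which share depth and table, Serpina3f and Serpina3g were most alike among the members (r = 0.965). Serpinb6b and Serpinb9 had r = 0.695, and Serpinb9 and Serpinb9b r = 0.513, while Serpinb2 and Serpinb6b had r = −0.538. Among 11265 genes compared, those closest to a member were Arid5a (0.975), Lhx2 and Fndc3a for Serpina3f, Tbc1d13 (0.970), Serpina3f and Sco1 for Serpina3g, and Il6 (0.960), Psma6 and Il1b for Serpinb2, Il6 and Il1b being inflammatory cytokines. For Serpinb1a they were Nme1 (0.962), Ndufa1 and Atp5g3, for Serpinb6b Eogt (0.835), Pus10 and Exoc6, for Serpinb9 Mrpl13 (0.913), Bid and Trap1, and for Serpinb9b Serpinb1b (0.777), Uchl1 and Bst1.

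Of the other 57 serpins listed, 18 had no count in any library, and 16 passed the filter in at least 1 table and could be tested with edgeR's quasi-likelihood test. The most abundant was Serpinb6a, an intracellular clade B serpin, with a mean of 144 to 707 CPM. It was lower with KLA in all 4 tables, the largest drop being that with DMSO, from 654 to 144 CPM (−1.40 ± 0.04, adjusted p = 2.55e-220). In NKO_RANKL it was higher than in WT_RANKL, at 600.0 against 362 CPM (0.83 ± 0.06, adjusted p = 6.69e-19), where Serpinb6b had 24.4 and 17.05 CPM against 84.2 and 77.9 CPM.

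Counts over these other serpins are given with the shares of all genes called higher and lower in brackets. With KLA in WT 4 were higher and 4 lower of 15 tested (25.4% and 32.3%). The counts were 8 and 1 with RANKL (24.1% and 19.8%), 7 and 1 with poly I:C (22.2% and 25.0%), and 3 and 2 with IL4 (6.63% and 6.46%). IFNb gave 0 and 0 (4.09% and 2.37%), and DESeq2 called 0. There edgeR's quasi-likelihood test put 3 below an unadjusted p of 0.05. It put 2 below an adjusted p of 0.05, at folds under 1.5. NKO against WT gave 0 higher and 5 lower with vehicle, 5 and 0 with KLA, 9 and 1 with RANKL, 0 and 4 with poly I:C, 0 and 3 with IFNb, and 0 and 4 with IL4. Serpinb10, a serpin of blood cells, rose with RANKL from 0.0820 to 5.45 CPM, at least 22.1-fold (adjusted p = 1.93e-12). The neutrophil markers summed to 1818 and 1663 CPM in WT_RANKL and to 9.60 and 4.22 CPM in WT_Veh. The part of neutrophils in the Serpinb10 level was not tested. Serping1, the complement C1 inhibitor, was higher in NKO with RANKL (7.18 against 2.31 CPM, 1.72 ± 0.27, adjusted p = 4.27e-07) and lower with poly I:C (2.63 against 6.36 CPM, −1.31 ± 0.26, adjusted p = 7.77e-05). Serpinh1, the collagen chaperone, fell with KLA from 18.0 CPM to a level at or under 3 counts, at least 50.5-fold (adjusted p = 5.23e-21), and Serpinf1, pigment epithelium-derived factor, fell at least 25.2-fold (adjusted p = 1.31e-14). In the same groups the 6 fibroblast markers summed to 117 and 105 CPM in WT_Veh and to 0.945 and 1.08 CPM in WT_KLA, and they summed to 280 and 249 CPM in WT_RANKL and 277 and 382 CPM in NKO_RANKL. The part of these cells in the results for Serpinh1, Serpinf1 and Serping1 was not tested. In NKO cells given poly I:C Serpinh1 had 6.89 CPM against 14.5 CPM in WT (−1.12 ± 0.16, adjusted p = 1.48e-07), and with the TBK1 inhibitor it fell from 6.76 to 4.04 CPM (−1.11 ± 0.23, adjusted p = 4.53e-06). Serpinb1b rose with RGFP966 from 3.58 to 6.39 CPM (0.82 ± 0.23, adjusted p = 0.0017).

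**Figure D4:**
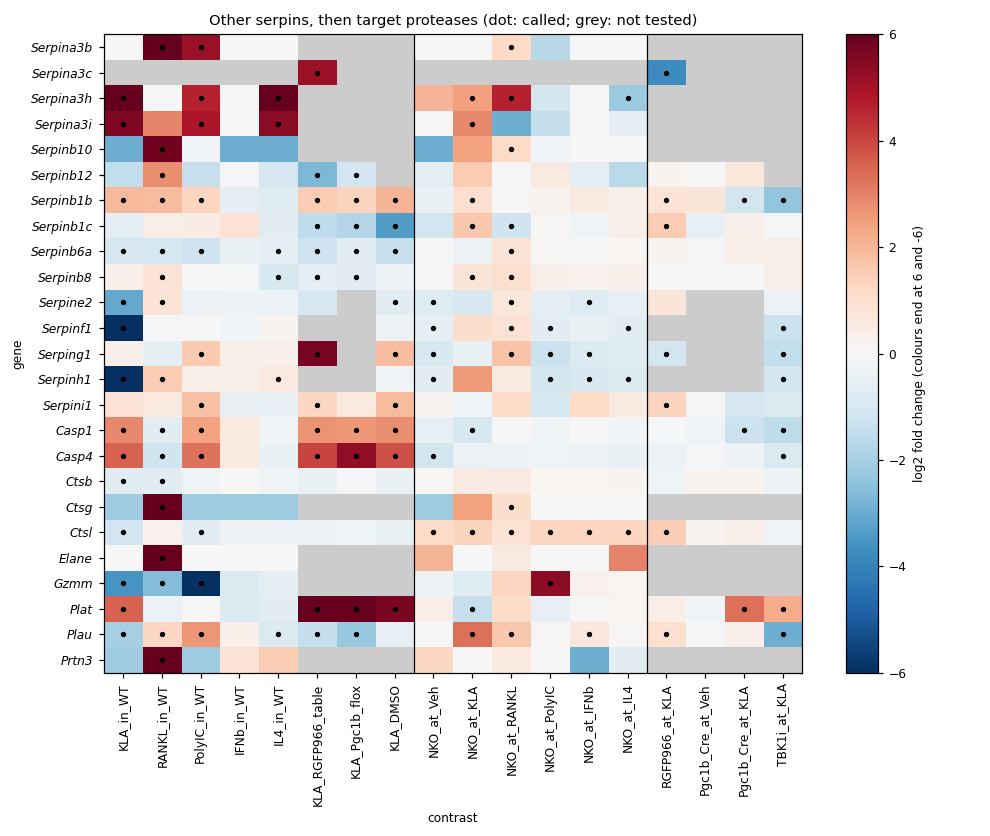
Log2 fold change of 15 other serpins and, below them, 10 proteases that serpins of these clades are known to inhibit (rows) in the 18 contrasts (columns), coloured from −6 to 6, with a dot where called and grey where not tested. Plat carries a dot on the red side with KLA in all 4 tables, and Elane, Prtn3 and Ctsg do with RANKL.

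Of 12 proteases that these serpins are known to inhibit, 10 were tested, and Gzma and Gzmb, the genes of granzymes A and B, did not pass the filter in any table, with at most 0.308 CPM as a group mean. Plau, which encodes urokinase, moved opposite to Serpinb2 with KLA in WT cells, from 126 to 18.9 CPM (−2.01 ± 0.16, adjusted p = 7.88e-09). Its NKO contrast at KLA was likewise opposite, with 183 CPM in NKO_KLA against 18.9 CPM (3.32 ± 0.15, adjusted p = 9.12e-12), where Serpinb2 had 14.2 and 10.7 CPM against 106 and 122 CPM. With RANKL the 2 genes did not move apart: both rose in WT cells (Plau 1.23 ± 0.11, adjusted p = 4.01e-08, Serpinb2 2.32 ± 0.49), and both were higher in NKO (Plau 1.59 ± 0.10, adjusted p = 3.74e-09, Serpinb2 1.23 ± 0.30). With the TBK1 inhibitor Plau fell from 44.1 to 7.35 CPM (−2.94 ± 0.12, adjusted p = 8.30e-131). Plat, the tissue plasminogen activator, rose with KLA in each table and was at 104 CPM with the TBK1 inhibitor against 17.1 CPM (2.24 ± 0.09, adjusted p = 7.99e-127).

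The proteases inhibited by Serpinb1a were highest with RANKL. Elane averaged 37.9 CPM in WT_RANKL (at least 154-fold above vehicle, adjusted p = 1.60e-29), Prtn3 40.0 CPM (at least 163-fold, adjusted p = 5.46e-30) and Ctsg 12.6 CPM (at least 51.2-fold, adjusted p = 1.01e-19). These are the libraries with 1663 to 2207 CPM of neutrophil markers, of which Elane is one. Ctsl, a cysteine cathepsin of the kind Serpina3g inhibits, was higher in NKO under every condition, from 0.85 ± 0.05 with RANKL (adjusted p = 1.03e-20) to 1.32 ± 0.05 with KLA (adjusted p = 2.10e-30). Ctsb was called in none of the NKO contrasts, but 2 of them fell short of the fold threshold alone, without overlap of the libraries. In NKO it had 11388 CPM against 8322 CPM with KLA (0.51 ± 0.04) and 19411 CPM against 14649 CPM with RANKL (0.51 ± 0.04). Casp1, an inflammatory caspase, rose with KLA in all 4 tables and was lower in NKO_KLA, at 272 against 546 CPM (−0.95 ± 0.05, adjusted p = 4.11e-23). Over the 10 tested proteases KLA in WT gave 3 higher and 4 lower (25.4% and 32.3% of all genes) and RANKL 4 and 4 (24.1% and 19.8%). Poly I:C gave 3 and 2 (22.2% and 25.0%) and IL4 0 and 1 (6.63% and 6.46%). IFNb gave 0 and 0 (4.09% and 2.37%), and DESeq2 called 0. There edgeR's quasi-likelihood test put 4 below an unadjusted p of 0.05. It put 3 below an adjusted p of 0.05, at folds under 1.5. Whether these proteases differed from all genes was not tested.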

How the data were processed

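RNA-seq of BMDMs was analysed from 4 tables of raw counts per gene as deposited by the authors, who aligned reads to mm10 with STAR and counted them with HOMER per the labels and the study's methods. Single-end reads in exons were counted by strand, for the most abundant transcript of a gene. Tool versions are not given in the sources used here. Columns were matched to samples by name, and all groups came from the labels. The members and gene lists were chosen with earlier results of these data known.

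Counts were tested per table with edgeR 4.0.16 (TMM, filterByExpr, robust quasi-likelihood F-test, all groups in the fit, Benjamini-Hochberg over all genes tested) in R 4.3.3. The genes tested numbered 13407, 12196, 12205 and 12332. A call needs an adjusted p below 0.05 and a fold above 1.5. The SE is the log2 fold change divided by the square root of F. CPM used no TMM factor. Folds against a group at or under 3 counts in both libraries are lower bounds, for counting error only. On counts simulated for NKO_Veh against WT_Veh over 12067 genes, 96 of 100 genes changed 2-fold and 100 of 100 changed 4-fold were recovered, with 1 unchanged gene called. The spread was fixed and the changed genes were drawn from those with higher expected counts. Recovery at low counts, such as those of Serpina3f and Serpinb2 with vehicle, was therefore not tested. Replicates differed by more than sampling noise (lowest chi-square per degree of freedom 1.54).

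Other serpins were named by a rule, which took the 2 with the largest called change in each direction per family of contrasts among those with 5 CPM or more in a compared group. Serpinb6a was named after its values were seen. A gene among the other serpins, included in the counts, is not reported here by itself. Alternatives were DESeq2 1.42.0 and its size factors, other filters, only the compared groups, a replicate block, leaving out each library, no fold threshold, and TMM over all libraries for levels. Library totals alone, and leaving out the RANKL or the NKO_KLA libraries, were chosen after seeing the data. Promoters were aligned with Biopython 1.88.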

Additional observations from a re-analysis of the deposited data

Results flagged for a closer look

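The NKO effect went in opposite directions under different conditions, with no overlap of the libraries, for 6 of the 7 members. Only Serpinb2 and Serpinb9b were called in both directions, and many of the other contrasts passed no call. The share of all genes with such a pattern was not counted, and groups of 2 libraries can fail to overlap without any difference. The count of 6 is therefore not a result about these genes, and the differences between conditions were not tested. Serpinb2 was lower in NKO with KLA (log2 fold change −3.13) and higher with RANKL (1.23), both called, and with IL4 (1.68, not called and under 1 CPM in each library). Serpinb9b was lower in NKO with RANKL (−0.84) and higher with KLA (1.59), poly I:C (1.25) and IL4 (1.18), all called, and with IFNb (0.78, not called).

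Serpinb9 was higher in NKO with KLA (1.70, called) and lower, without a call, with vehicle (−0.57), RANKL (−0.14), poly I:C (−0.46), IFNb (−0.14) and IL4 (−0.26). Serpina3f was higher with KLA (2.39, called) and lower with poly I:C (−0.28, not called). It was also higher with RANKL (1.33, not called, a fitted value against a WT group at or under 3 counts). Serpina3g was higher with KLA (3.00, called) and RANKL (0.40, not called) and lower with poly I:C (−0.42, not called). Serpinb1a was higher in NKO with KLA (6.85, called, a fitted value against a WT group at or under 3 counts, 5.93 or 10.06 without WT_KLA replicate 1 or replicate 2) and RANKL (0.45, not called) and lower with vehicle (−0.86, not called, −0.26 or −2.36 without NKO_Veh replicate 1 or replicate 2). At KLA genotype cannot be told apart from date and sex.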

How the results depend on the processing

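Of the 7 sets of calls counted, those that changed by more than 1.5 times did so as follows. Members called in the NKO contrasts went from 13 to 20 without the fold threshold and to 7 without the NKO_KLA libraries, which hold 6 of the 13. Other serpins called went from 52 to 23 (ligand responses), from 31 to 20 (NKO) and from 13 to 4 (inhibitor and Pgc1b contrasts) when only genes with a mean of 5 CPM or more were tested, which leaves fewer genes. Target proteases called went from 54 to 86 without the fold threshold. Leaving out each library in turn gave 34 to 36 member calls in the responses, 12 to 14 in the NKO contrasts and 14 to 16 in the inhibitor and Pgc1b contrasts. For other serpins it gave 47 to 53, 27 to 31 and 10 to 13, and for target proteases 53 to 55. With library totals in place of TMM, 6 member changes turned sign. In 2 of them 1 of the fits made a call, Serpinb9 (−0.011) and Serpinb9b (−0.76) with KLA in the RGFP966 table. The other 4, called in neither fit, were Serpinb6b with KLA in WT (−0.56), Serpinb9 with KLA in the Pgc1b table (−0.15), Serpina3f in NKO with IL4 (−0.042) and Serpinb1a in Pgc1b flox/flox LysMCre with KLA (0.0073). Beside these, 8 changes were newly called and 5 lost their call. DESeq2's size factors changed no member's call. DESeq2 itself lost 3 of the calls, among 122 member changes compared, called or not. Without the RANKL libraries or the NKO_KLA libraries, no call of a member in the remaining contrasts changed. Replicate numbers did not pair the libraries (correlations of deviations between −0.060 and 0.060 over all pairs of groups). A replicate block altered no call among the 122 member changes compared (35, 13 and 15 calls in the 3 families). TMM over all 44 libraries moved 103 of 154 member levels by more than 1 SD, with ratios of 0.736 to 1.49. Levels of 3 counts or fewer limit Serpina3f in all vehicle groups, Serpina3g and Serpinb2 in some of them, and Serpinb1a in 6 groups given KLA, poly I:C or IFNb.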
